A study of Mus musculus with 4 samples.

Results

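The genes considered here are 9 named genes of the sending end of olfactory sensory neurons (OSNs), listed by name and function, out of 24421 genes with deposited expression values. They comprise 6 genes of glutamate release (*Slc17a6*, *Snap25*, *Syt1*, *Vamp2*, *Stx1a*, and *Syp*), 2 receptors that restrain release (*Drd2* and *Gabbr1*), and the carnosine synthase gene *Carns1*. All 9 genes were found by symbol, and all were above 20 TPM (a share of all transcripts in a library that is corrected for transcript length) in each of the 4 libraries. OSNs carry odor signals along their axons to the glomeruli of the olfactory bulb, where they release glutamate onto bulb neurons. Dopamine and GABA from bulb interneurons act back on the OSN terminal through D2 and GABA-B receptors and lower the release of glutamate. OSNs are also known for a high content of carnosine, a dipeptide of beta-alanine and histidine.

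The libraries came from FACS-sorted cells of the mouse main olfactory epithelium (MOE). In the TAAR enhancer 1-GFP line, the enhancer and the Hsp68 minimal promoter drive GFP, and GFP-positive and GFP-negative cells were sorted. In the TAAR enhancer 2-tdTomato line, the same promoter and the other enhancer drive tdTomato, and tdTomato-positive and tdTomato-negative cells were sorted. Positive and negative cells of a line carry the same PiggyBac transgene, no mouse was treated, and a single founder line was kept for each transgene. The labels give C57BL/6 adults, whereas the reporting summary of the study gives young postnatal mice of both sexes on a mixed C57BL/6J and 129 background. The comparison asks how cells in which a TAAR enhancer is active differ from the other cells of the MOE. Each group has 1 library and the number of mice behind it is not stated, so no difference has a replicate error and no p-value was calculated. TPM values have no read counts behind them here, so the depth is unknown and intervals for counting error were not calculated.

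Some properties of the libraries bear on every value below. The summed TPM of 12 markers of mature OSNs, such as *Omp* and *Gnal*, was lower in reporter-positive cells, from 28264 (GFP-negative) to 3131 (GFP-positive) in the first line and from 29123 (tdTomato-negative) to 13119 (tdTomato-positive) in the second. Sums for several other cell types were higher in reporter-positive cells, though not for every marker. Summed TPM of 9 sustentacular cell markers ranged from 1152 to 2029 in reporter-negative cells and from 9700 to 15813 in reporter-positive cells, and that of 8 Bowman gland markers went from 3572 to 111372 in the GFP line and from 338.9 to 2094 in the tdTomato line. In the GFP line all 9 sustentacular and all 8 gland markers were at least 2-fold higher, but in the tdTomato line 4 sustentacular markers were higher and 3 lower (*Cyp2g1*, *Cyp1a2*, and *Gpx6*), and 6 gland markers were higher and 2 lower (*Muc2* and *Obp2a*). The 10 multiciliated cell markers summed to between 669.9 and 800.1 in reporter-negative cells and between 2412 and 7372 in reporter-positive cells. The 9 immune cell markers summed to 4738 and 2091 in the GFP line, negative cells first, and to 1854 and 1734 in the tdTomato line, and 8 of the 9 were at least 2-fold lower in reporter-positive cells of each line, with *Lyz2* as the exception. The part of these cells in the values below was not tested. In sorted bulk samples, fewer mature OSNs and less RNA per OSN cannot be told apart.

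All 9 genes were lower in reporter-positive cells of both lines in TPM as deposited. Scaled to mature OSN markers, as described below, 6 of the 9 were above 0 in the GFP line and 8 in the tdTomato line. That scaling also put the median of all genes tested above 0, at 1.98 and 0.73 in the GFP and tdTomato lines. The medians of the 9 genes were lower, at 0.054 and 0.18. On the log2(TPM + 1) scale, which is used for every difference below unless another is named, GFP-positive cells differed from GFP-negative cells by -3.17 (*Drd2*) to -2.03 (*Vamp2*), with a median of -2.95. Over all 16173 genes tested, which reach 1 TPM in either library, the median was -0.88. All 9 genes were at least 2-fold lower, as were 45.0% of all genes tested. In the TAAR enhancer 2-tdTomato line the differences were smaller, from -1.41 (*Drd2*) to -0.50 (*Slc17a6*), with a median of -0.85 against -0.23 for 15777 genes. Here 2 of the 9 genes, *Drd2* and *Syt1*, were at least 2-fold lower, compared with 23.2% of all genes tested. None of the 9 was at least 2-fold higher in either line, whereas 14.2% of all genes tested were in the GFP line and 17.2% in the tdTomato line. The difference between the lines was not tested.

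**Figure D1:**
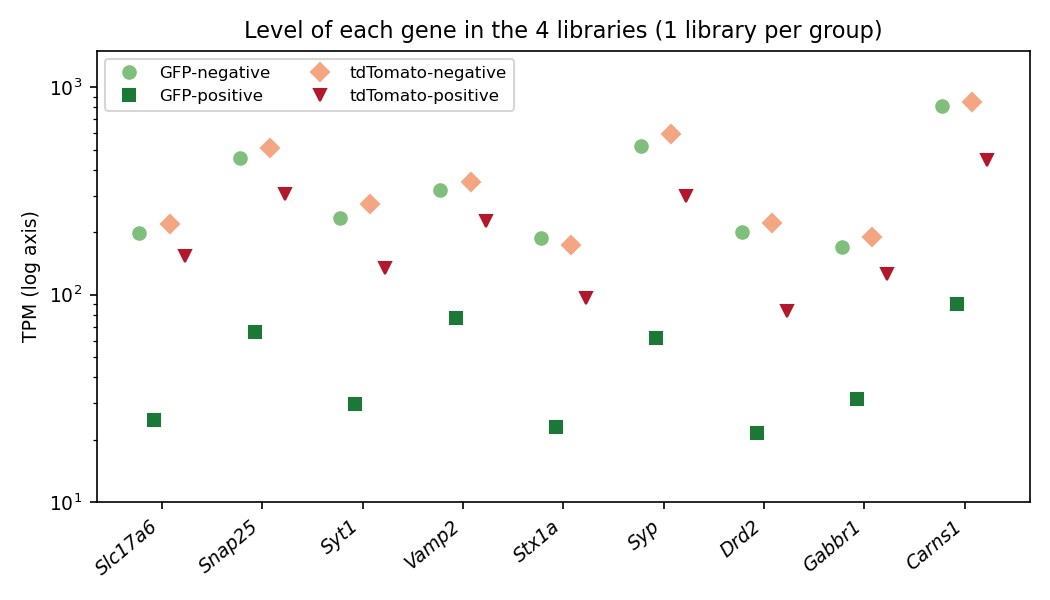
TPM of the 9 genes (log axis) in the 4 libraries, with 1 point per library and no error bars because each group has 1 library. For each gene the GFP-positive library is the lowest, the tdTomato-positive library comes next, and the reporter-negative libraries are highest and close together.

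*Slc17a6* encodes VGLUT2, the transporter that fills synaptic vesicles with glutamate. It was at 199 and 24.8 TPM in negative and positive cells of the GFP line, and at 219 and 154 TPM in those of the tdTomato line. The level was 8.02-fold lower in the positive cells of the GFP line and 1.42-fold lower in those of the tdTomato line, the smallest change of any of the 9 genes in that line. *Slc17a6* had the highest listed level of the 7 vesicular transporter genes examined in all libraries. Of the 6 others examined, *Slc17a7* (VGLUT1) was at most 2.38 TPM, *Slc17a8* (VGLUT3) at most 0.703 TPM, the monoamine and acetylcholine transporters *Slc18a1* and *Slc18a3* at most 2.23 and 1.13 TPM, and the GABA transporter *Slc32a1* and the monoamine transporter *Slc18a2* were listed at 0 throughout. A listed 0 may be a failed estimate rather than a missing transcript, since *Vamp7*, a SNARE gene used in most cells, was also listed at 0 in all 4 libraries.

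*Snap25*, *Stx1a*, and *Vamp2* encode the neuronal SNARE proteins, of which SNAP25 and syntaxin 1A sit on the plasma membrane and VAMP2 on the vesicle. Together they pull the membranes into fusion. *Snap25* was at 455 and 66.4 TPM in the GFP line, negative cells first, and at 509 and 305 TPM in the tdTomato line. *Stx1a* was at 188 and 22.9 TPM in the GFP line and at 174 and 96.0 TPM in the tdTomato line, negative cells first. *Vamp2* was at 318 and 77.2 TPM in the GFP line and at 349 and 226 TPM in the tdTomato line, in the same order. The SNARE genes did not change to the same extent, since GFP-positive cells kept 24.3% of the negative level of *Vamp2*, 14.6% of that of *Snap25*, and 12.2% of that of *Stx1a*. As a result, *Snap25* had 1.43 and 0.86 times the TPM of *Vamp2* in negative and positive cells of the GFP line, and 1.46 and 1.35 times in those of the tdTomato line.

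*Syt1* encodes synaptotagmin 1, the calcium sensor for fast release, and *Syp* encodes synaptophysin, an abundant protein of the vesicle membrane. *Syt1* was at 235 and 29.8 TPM in the GFP line, negative cells first, and at 273 and 134 TPM in the tdTomato line. *Syp* was at 519 and 61.7 TPM and at 593 and 298 TPM in the same order. The pair changed alike, by -2.94 and -3.05 in the GFP line and by -1.02 and -0.99 in the tdTomato line. *Syt1* and *Syp* were also among the 3 nearest genes of each other in profile, as described below.

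*Drd2* encodes the dopamine D2 receptor and had the largest change of the 9 genes in both lines. In the GFP line its -3.17 was close to the -3.16 of *Carns1*, and the order there depended on the pseudocount, as given below. *Drd2* was at 201 and 21.5 TPM in negative and positive cells of the GFP line, a 9.37-fold difference. In those of the tdTomato line it was at 222 and 83.1 TPM, a 2.68-fold difference. The level of *Drd2* was close to that of *Slc17a6* in both reporter-negative libraries (*Slc17a6* to *Drd2* ratios of 0.988 and 0.985), but the ratio was 1.15 and 1.86 in the positive cells of the GFP and tdTomato lines. Of the other dopamine receptor genes, *Drd1*, *Drd3*, and *Drd5* were listed at 0 in all libraries and *Drd4* was at 3.996 TPM in tdTomato-negative cells and listed at 0 in the others, with the same limit on what a listed 0 means.

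*Gabbr1* encodes the subunit of the GABA-B receptor that binds GABA. Its level was 170.2 and 31.3 TPM in negative and positive cells of the GFP line, and 190.4 and 126 TPM in those of the tdTomato line. With *Vamp2*, it kept more of its negative level in GFP-positive cells (18.4%) than the other genes, and it kept 66.1% in tdTomato-positive cells. *Gabbr2*, which encodes the partner subunit that couples to G proteins, was at 89.0 and 10.3 TPM in the GFP line and at 90.5 and 73.3 TPM in the tdTomato line. The *Gabbr1* to *Gabbr2* ratio was 1.91, 3.04, 2.10, and 1.72 in GFP-negative, GFP-positive, tdTomato-negative, and tdTomato-positive cells, so it was higher in positive than in negative cells of the GFP line and lower in those of the tdTomato line.

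*Carns1*, which encodes the enzyme that joins beta-alanine to histidine, had the highest level of the 9 genes in every library. Negative and positive cells of the GFP line had 817 and 90.3 TPM, a 9.04-fold difference, and those of the tdTomato line had 849 and 444 TPM, a 1.91-fold difference. Ranked among all genes, *Carns1* held place 125 and 116 in the negative cells of the GFP and tdTomato lines, and place 1232 and 257 in the positive cells.

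**Figure D2:**
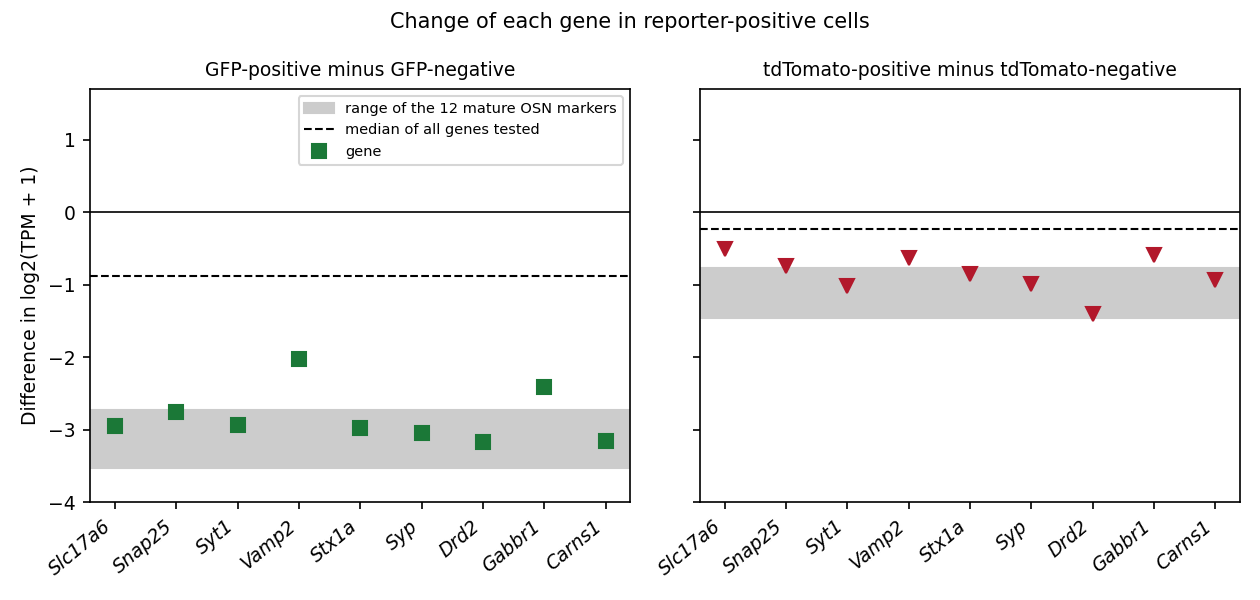
Differences in log2(TPM + 1) of the 9 genes, reporter-positive minus reporter-negative, in the GFP line (left) and the tdTomato line (right). Grey bands are the range of 12 mature OSN markers, dashed lines are the median of all genes tested. In the GFP line 7 of the 9 genes lie in the band and *Vamp2* and *Gabbr1* above it, and in the tdTomato line 5 lie in it and 4 above it.

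In reporter-negative cells the order of the levels was *Carns1*, *Syp*, *Snap25*, *Vamp2*, *Syt1*, *Drd2*, and *Slc17a6* in both lines, with *Stx1a* and *Gabbr1* last and in exchanged places. The reporter-negative libraries come from different lines and mice and are not replicates, but they give a yardstick for the variation between libraries of a like sort. The 9 genes differed between them by -0.11 (*Stx1a*) to 0.22 (*Syt1*), tdTomato-negative minus GFP-negative, while the median absolute difference of 15899 genes was 0.43, and 23.8% of these genes were at least 2-fold apart. None of the 9 was. *Drd2* and *Slc17a6*, neighbors in this order, had 201 and 199 TPM in GFP-negative cells and 222 and 219 TPM in tdTomato-negative cells, which is closer than either gene was between these libraries. In reporter-positive cells *Carns1* stayed first and *Drd2* was last in both lines. *Vamp2* came after *Carns1* in the GFP line, but after *Carns1*, *Snap25*, and *Syp* in the tdTomato line. Over the 9 genes, the differences in the 2 lines had a Spearman rho of 0.65 and a Pearson r of 0.62, as a description of genes that share their libraries. *Drd2* had the largest change in both lines, narrowly past *Carns1* in the GFP line. *Slc17a6* had rank 5 in the GFP line and rank 9, the smallest change, in the tdTomato line.

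To set the genes against the mature OSN content of each library, the TPM of each gene was divided by the geometric mean TPM of the 12 mature OSN markers, which was 1167 in GFP-negative, 140.1 in GFP-positive, 1311 in tdTomato-negative, and 636 in tdTomato-positive cells. On this scale *Syp*, *Syt1*, and *Carns1* varied least. *Syp* was at 44.5%, 44.0%, 45.3%, and 46.8% of the marker mean in GFP-negative, GFP-positive, tdTomato-negative, and tdTomato-positive cells. *Syt1* was at 20.1%, 21.3%, 20.8%, and 21.1%, and *Carns1* was at 70.0%, 64.5%, 64.7%, and 69.8%, in the same order. The range over libraries of *Stx1a* was 13.3% to 16.4%.

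*Vamp2* stood apart in the GFP line, with 27.3% of the marker mean in negative and 55.1% in positive cells, and was at 26.6% and 35.5% in the tdTomato line. *Gabbr1* was at 14.6% and 22.4% in the GFP line and at 14.5% and 19.8% in the tdTomato line. *Snap25* was at 39.0% and 47.4% in the GFP line and at 38.8% and 47.9% in the tdTomato line. These 3 genes were therefore higher per marker in reporter-positive cells of both lines. *Snap25* in the GFP line lay within the spread of the markers themselves, which is given below beside all genes tested. *Slc17a6* was higher mainly in the tdTomato line, with 16.7% and 24.3%, compared with 17.1% and 17.7% in the GFP line. *Drd2* went the other way, from 17.3% to 15.3% in the GFP line and from 17.0% to 13.1% in the tdTomato line. Both of these falls lay within the spread of the markers.

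**Figure D3:**
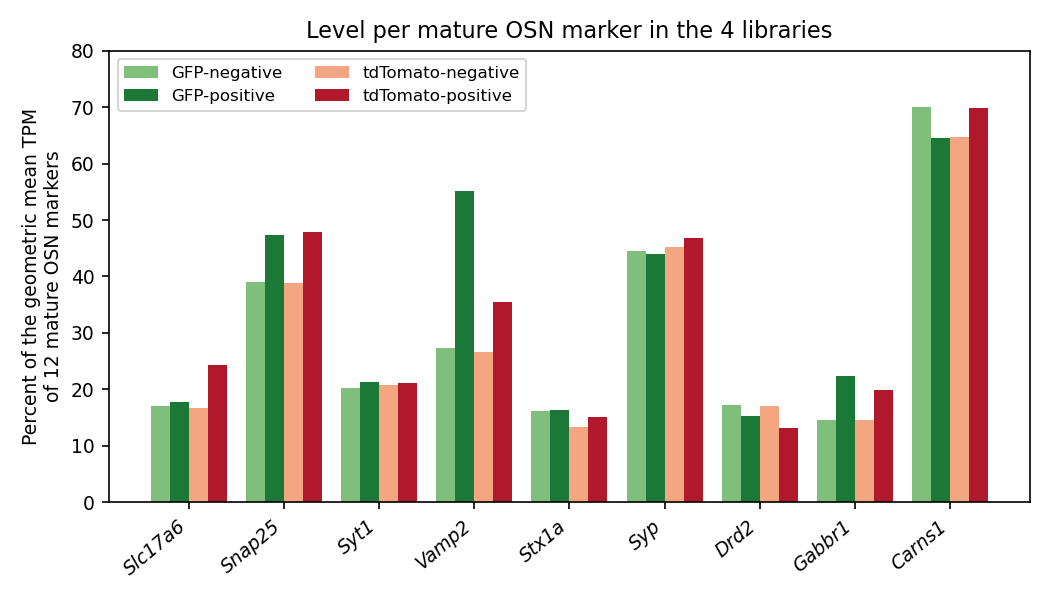
TPM of the 9 genes as a percent of the geometric mean TPM of 12 mature OSN markers, with 1 bar per library. Bars of *Syt1* and *Syp* are nearly level over the 4 libraries, *Vamp2* has its highest bar in GFP-positive cells (55.1%), *Slc17a6* its highest in tdTomato-positive cells (24.3%), and *Drd2* its lowest there (13.1%).

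With all libraries scaled to the same mean log2(TPM) of these markers, the median difference of the 9 genes was 0.054 in the GFP line and 0.18 in the tdTomato line, whereas that of all genes tested was 1.98 and 0.73. The 12 markers themselves ranged from -0.47 to 0.32 in the GFP line and from -0.42 to 0.28 in the tdTomato line. *Vamp2* (1.01) was the 1 gene of the 9 that was at least 2-fold higher in GFP-positive cells, compared with 76.7% of all genes tested, and none of the 9 was at least 2-fold lower, compared with 7.82%. In the tdTomato line none of the 9 passed 2-fold in either direction, while 38.3% of all genes were higher and 12.5% lower. The differences outside the range of the markers were those of *Vamp2* (1.01) and *Gabbr1* (0.61) in the GFP line, and of *Slc17a6* (0.53), *Gabbr1* (0.44), *Vamp2* (0.41), and *Snap25* (0.30) in the tdTomato line. This scaling shifts the median of all genes by 2.86 in the GFP line and 0.97 in the tdTomato line. A scaling by the median ratio of genes shifts it by 0.81 and 0.15, and rescaling without the highest genes by 0.45 and 0.050. The 9 genes stayed lower in reporter-positive cells of both lines under the last 2 scalings.

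The neuronal SNARE genes have paralogs that are used for membrane fusion in most cell types. Of 13 such paralogs with at least 1 TPM, 6 were at least 2-fold lower and 1 was higher in GFP-positive cells, with a median of -0.91, close to the 45.0% lower and the median of -0.88 of all genes. For the tdTomato line the counts were 1 lower and none higher, with a median of -0.44, whereas 23.2% of all genes were lower. When scaled to mature OSN markers, none of the paralogs was lower, and 12 and 2 were higher in the GFP and tdTomato lines, beside 76.7% and 38.3% of all genes. *Snap23*, the widely expressed counterpart of *Snap25*, was at 30.1, 19.0, 33.9, and 19.7 TPM in GFP-negative, GFP-positive, tdTomato-negative, and tdTomato-positive cells. The *Snap25* to *Snap23* ratio was 15.1, 3.50, 15.01, and 15.5 in this order, so it was low in GFP-positive cells only. *Stx2*, a paralog of *Stx1a*, differed by -2.48 in the GFP line and -0.45 in the tdTomato line. The *Stx1a* to *Stx2* ratio was 1.12, 0.79, 1.29, and 0.98 in the same order, a smaller change in the GFP line than that of *Snap25* to *Snap23*. *Vamp8*, which serves secretion in epithelial and blood cells, was at 70.5 and 228 TPM in the GFP line and at 106 and 163 TPM in the tdTomato line. It was the 1 paralog of the 13 that was at least 2-fold higher in GFP-positive cells. The *Vamp2* to *Vamp8* ratio was 4.52 and 0.338 in the GFP line and 3.29 and 1.38 in the tdTomato line. *Sypl*, a relative of *Syp* found in many tissues, was at 28.5 and 87.9 TPM in the GFP line and at 32.9 and 123 TPM in the tdTomato line. It was higher by 1.59 and 1.87, and the *Syp* to *Sypl* ratio went from 18.2 to 0.702 and from 18.0 to 2.42. The summed levels of gland, sustentacular, and multiciliated cell markers were also higher in the reporter-positive libraries, with the exceptions given above among single markers in the tdTomato line, and their part in these ratios was not tested.

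The wider set of release genes held 91 genes besides the 6 listed here, namely transporters, SNAREs and their regulators, synaptotagmins, vesicle membrane proteins, active zone proteins, and presynaptic calcium channels. In the GFP line 74 of them reached 1 TPM in either library, of which 48 were at least 2-fold lower and 6 higher, with a median of -1.85, beside 45.0% lower and 14.2% higher among all genes. Of 73 that did in the tdTomato line, 15 were lower and 7 higher, with a median of -0.50, and neither share exceeded that of all genes, 23.2% lower and 17.2% higher. After scaling to mature OSN markers the medians turned positive, at 0.74 and 0.52, with 1 lower and 32 higher in the GFP line and 3 lower and 18 higher in the tdTomato line. Both medians were below the 1.98 and 0.73 of all genes under this scaling, and both shares of higher genes were below 76.7% and 38.3%. Several genes that work beside the 9 had values near theirs in the GFP line. *Cplx2* (a complexin that clamps SNAREs) differed by -2.60 and -0.65 in the GFP and tdTomato lines, *Cacna1b* (the N-type calcium channel) by -2.59 and -0.41, and *Bsn* (Bassoon, an active zone scaffold) by -2.92 and -0.17. *Syt11* was the synaptotagmin gene with the highest level in reporter-negative cells, at 315 and 311 TPM, above *Syt1*, and differed by -2.90 and -0.91. Other release genes were not near the 9 in the GFP line, such as *Snapin* (-0.46), *Unc13b* (-0.65), and *Stxbp3* (0.33). The median of the wider set there (-1.85) was above the -2.95 of the 9.

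Some release genes were higher in reporter-positive cells. Among the 59 that reached 10 TPM in any library, 44 were at least 2-fold lower in the GFP line and 8 in the tdTomato line, of which 7 were shared. Among all genes that reach 10 TPM in either library of a line, 48.1% and 19.4% were lower. Scaled to mature OSN markers, the 59 genes had 0 lower and 24 higher in the GFP line and 1 lower and 14 higher in the tdTomato line. The counts of higher genes are below the 76.7% and 38.3% of all genes tested, which reach 1 TPM rather than 10. In TPM as deposited, 4 were higher in the GFP line (*Lin7b*, *Rab27b*, *Sypl*, and *Syt10*) and 5 in the tdTomato line (*Cacnb1*, *Syngr3*, *Sypl*, *Syt10*, and *Syt5*). Both counts are below the 14.2% and 17.2% of all genes tested, a background that starts at 1 TPM rather than 10. *Sypl*, listed with the vesicle membrane proteins, is the relative of *Syp* described above as found in many tissues. Of the higher genes, *Lin7b*, *Rab27b*, *Syt10*, and *Cacnb1* reached 10 TPM only in reporter-positive cells, so the minimum itself kept them for being high there. *Syt10*, which encodes a synaptotagmin, was listed at 0 in GFP-negative cells and was at 10.3 TPM in GFP-positive cells, and was at 3.86 and 70.7 TPM in the tdTomato line. *Syt5* was at 74.0 and 43.9 TPM in the GFP line and at 58.2 and 135 TPM in the tdTomato line, so that in tdTomato-positive cells it was level with *Syt1* (134 TPM). Markers of other cell types moved with these libraries as given above, and their part was not tested.

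The list of presynaptic inhibition holds 20 genes with *Drd2* and *Gabbr1* among them. In the GFP line 10 of the 16 tested were at least 2-fold lower and 3 higher, with a median of -1.29, and in the tdTomato line 4 of 17 were lower and 3 higher, with a median of -0.47. The tdTomato counts are at the background of 23.2% lower and 17.2% higher, while in the GFP line 45.0% of all genes were lower and 14.2% higher. Scaled to mature OSN markers, the list had 0 lower and 9 higher in the GFP line, with a median of 1.49. Of all genes there, 7.82% were lower and 76.7% higher, with a median of 1.98. In the tdTomato line 1 was lower and 7 higher, with a median of 0.54. Of all genes there, 12.5% were lower and 38.3% higher, with a median of 0.73. *Gnao1*, the G protein subunit through which both receptors act in many neurons, was at 100.4 and 19.6 TPM in the GFP line and at 120.2 and 81.4 TPM in the tdTomato line. *Kctd16*, an auxiliary subunit of GABA-B receptors, was at 23.7 and 2.74 TPM in the GFP line, but at 37.96 and 54.2 TPM in the tdTomato line. *Kctd12*, another auxiliary subunit, was lower in both lines, with differences of -1.76 and -1.10. *Gnai1*, an inhibitory G protein subunit gene, was higher in both, from 1.82 to 13.0 TPM and from 1.20 to 9.53 TPM. It reached the 10 TPM needed to be named only in GFP-positive cells, so the minimum kept it for being high there.

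Of the 12 genes listed for carnosine metabolism, 11 were found. In the GFP line 5 of the 9 tested were at least 2-fold lower and 2 higher, and in the tdTomato line 1 of 8 was lower and 2 higher. With so few genes these counts are near the 45.0% lower and 14.2% higher of all genes in the GFP line, and the 23.2% and 17.2% in the tdTomato line. After the marker scaling 1 was lower and 6 higher in the GFP line, and 1 was lower and 2 higher in the tdTomato line, beside 7.82% lower and 76.7% higher of all genes in the GFP line and 12.5% and 38.3% in the tdTomato line. *Gadl1*, which encodes a decarboxylase that can form beta-alanine, was at 188 and 26.9 TPM in the GFP line and at 206 and 109 TPM in the tdTomato line, with differences of -2.76 and -0.91 that lie near those of *Carns1*. Genes for breakdown and transport of dipeptides differed among themselves. *Cndp2*, a cytosolic dipeptidase, was at 81.1, 38.3, 69.4, and 54.5 TPM in GFP-negative, GFP-positive, tdTomato-negative, and tdTomato-positive cells. *Slc15a2*, a dipeptide transporter, was higher in reporter-positive cells, at 11.1 and 58.1 TPM in the GFP line and at 11.1 and 26.6 TPM in the tdTomato line. *Slc15a3*, of the same transporter family, was lower, at 26.3 and 1.23 TPM and at 34.2 and 5.47 TPM, and its differences of -3.61 and -2.45 were larger than those of *Carns1*. *Slc15a4*, another member of that family, differed by -1.30 and -0.49.

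**Figure D4:**
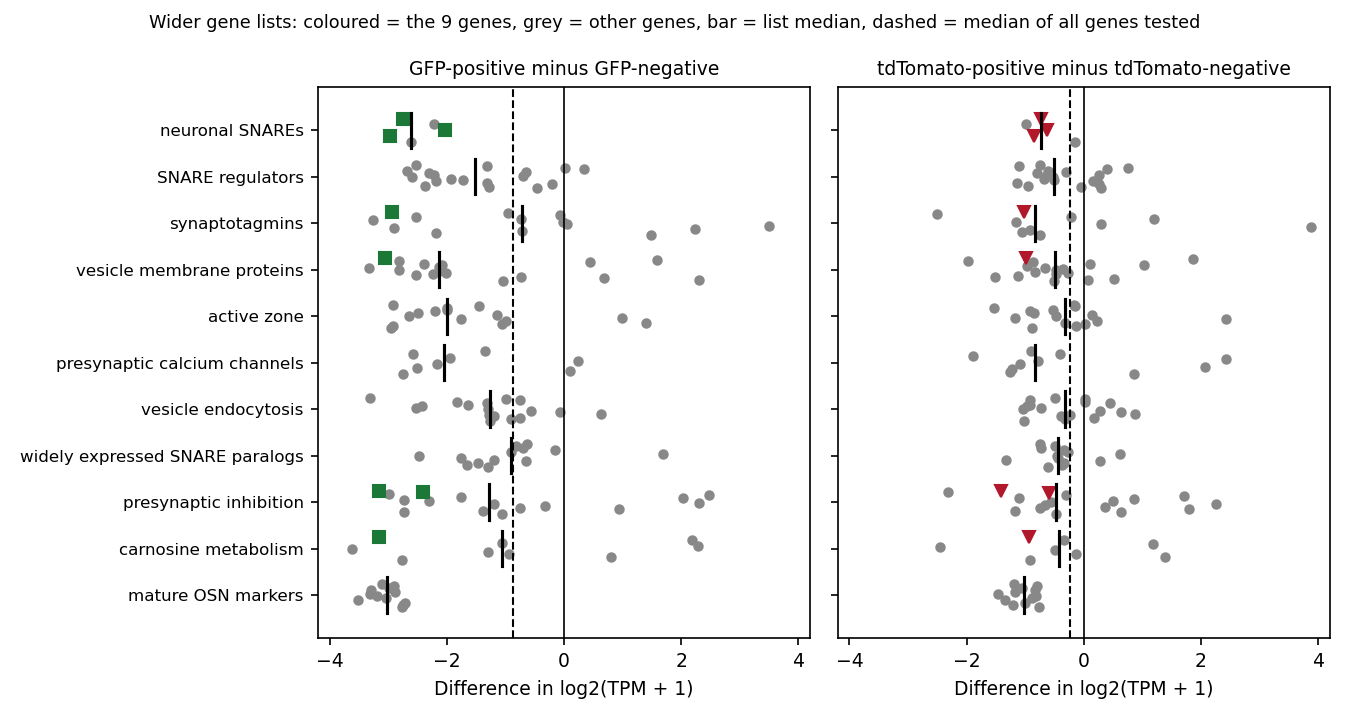
Differences in log2(TPM + 1), reporter-positive minus reporter-negative, of genes with at least 1 TPM in either library, by list. Colored points are the 9 genes, grey points other genes, black bars list medians, and dashed lines the median of all genes tested. Lists of neuronal release genes lie to the left of the dashed line in the GFP line except synaptotagmins.

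To find genes with a similar pattern, the log2(TPM + 1) values of each gene over the 4 libraries were centered on their mean, and the root mean square distance between profiles was taken over 11031 genes with a mean of at least 10 TPM. With only 4 libraries many genes have profiles close to one another. The nearest gene to *Snap25* was the mature OSN marker *Ric8b*, at a distance of 0.010, and the nearest to *Slc17a6* was *Dclk3*, at 0.019. *Syt1* and *Syp* held place 3 in each other's order, at 0.048. The nearest to *Stx1a* was the noncoding gene *Gm16023* (0.0095), on another chromosome. The nearest to *Drd2* was *Stom*, at 0.047, with 3485, 410, 4203, and 1490 TPM in GFP-negative, GFP-positive, tdTomato-negative, and tdTomato-positive cells. The nearest to *Vamp2* was *Phf8* (0.020), to *Gabbr1* *Lrp11* (0.031), and to *Carns1* *Pex5l* (0.039). *Syp* (0.032) and *Syt1* (0.039) were the members closest to the mean profile of the 12 mature OSN markers, and *Vamp2* was the farthest (0.42).

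The 9 genes lie on 9 different chromosomes. In GENCODE M21 (GRCm38, the same assembly as mm10) they span from 3895 bases (*Vamp2*, chr11:69088490-69092384) to 513333 bases (*Syt1*, chr10:108497650-109010982, minus strand). *Drd2* lies at chr9:49340627-49408177 and *Slc17a6* at chr7:51622006-51671119, both on the plus strand, and *Carns1* at chr19:4164324-4175479 on the minus strand.

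Promoter sequences of RefSeq (GRCm38.p6) were given for 6 of the 9 genes, with 8 start sites in all, and were examined over the 250 bases before each start for short motifs on both strands. The motifs were CCCNNGGGA, a form of the site of Ebf factors, and TAATTA, a site of Lhx2-type homeodomain proteins, since both kinds of factor act on olfactory receptor enhancers. Also searched were CAGCACC and GGACAGC, which are parts of the element bound by the neuronal repressor REST, and the cAMP response element TGACGTCA. The Ebf form was found before *Drd2* and *Stx1a*, in 2 of the 8 windows, and in 5.60% of 32851 windows of all genes. TAATTA was found in 1 window, before a start inside *Slc17a6*, and in 4.84% of all windows. GGACAGC was found before *Drd2*, and in 5.28% of all windows, while CAGCACC (5.73% of all windows) and TGACGTCA (1.55%) were not found in the 8 windows. A match describes letters and is not evidence of binding. The 3 windows with a match are shown because they belong to the genes with the largest (*Drd2*) and smallest (*Slc17a6*) change in tdTomato-positive cells and to *Stx1a*. Capitals mark the motif matches, both Ebf forms being on the other strand, and each sequence reads 5′ to 3′ toward the start on the plus strand, at chr9:49340153-49340402, chr5:135023232-135023481, and chr7:51624387-51624636, respectively.

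Drd2: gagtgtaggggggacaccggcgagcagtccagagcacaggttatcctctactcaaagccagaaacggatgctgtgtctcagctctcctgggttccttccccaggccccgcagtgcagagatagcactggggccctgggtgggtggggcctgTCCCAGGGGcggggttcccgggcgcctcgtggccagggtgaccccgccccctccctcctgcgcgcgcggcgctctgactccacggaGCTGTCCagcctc

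Stx1a: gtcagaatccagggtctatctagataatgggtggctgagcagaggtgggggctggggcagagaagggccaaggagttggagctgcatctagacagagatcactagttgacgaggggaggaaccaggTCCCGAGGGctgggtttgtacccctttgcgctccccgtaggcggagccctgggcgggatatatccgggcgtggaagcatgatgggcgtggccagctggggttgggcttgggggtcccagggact

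Slc17a6: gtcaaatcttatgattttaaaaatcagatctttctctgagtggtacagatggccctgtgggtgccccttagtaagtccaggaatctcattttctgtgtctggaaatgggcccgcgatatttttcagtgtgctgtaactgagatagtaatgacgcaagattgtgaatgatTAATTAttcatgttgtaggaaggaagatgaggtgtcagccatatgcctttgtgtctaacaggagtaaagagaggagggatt

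In the *Drd2* window the Ebf form begins 99 bases before the start, and the letters GCTGTCC, which are GGACAGC on the other strand, begin 13 bases before it. In the *Stx1a* window the Ebf form begins 124 bases before the start. In the *Slc17a6* window TAATTA begins 81 bases before a start that lies inside the annotated gene, and the window at the outer *Slc17a6* start held none of the motifs.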

How the data were processed

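RNA-seq of FACS-sorted MOE cells was analyzed in 4 libraries, 1 for each group named by the sample titles. The authors deposited TPM values per gene symbol, and each library sums to 1000000. The processing notes of the submitters name Trimmomatic 0.36, Salmon 1.4.0, and mm10, whereas the methods name Hisat2, Cufflinks, and featureCounts for RNA-seq. The methods also name RNeasy and Smart-seq2 for sorted cells, whereas the labels name Vazyme kits for RNA extraction and libraries. The gene annotation is not given in the sources used here. TPM keeps no depth, and very abundant transcripts lower all other values. The sum of the 10 highest genes was 31.5% of all TPM for GFP-positive cells and 5.72% to 9.44% for the rest.

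Differences are log2(TPM + 1), reporter-positive minus reporter-negative, which understate changes of low values. Genes with at least 1 TPM in either library of a line were tested, and 2-fold was the minimum for a call. The genes and lists were chosen with earlier results of these data known. The genes named are the 9 genes, listed genes that reach 10 TPM in any library or belong to a count, and the 3 nearest genes in profile. Calculations were checked on simulated data. Alternatives were pseudocounts of 0.1 and 10, other minimum values and folds, and 3 scalings. The median ratio was taken over 11943 genes that reach 1 TPM in every library, and 24 genes among the 10 highest of any library were removed for the second scaling. Python 3.11.15, NumPy 2.4.6, pandas 2.3.3, and Matplotlib 3.10.9 were used. A comparison of protein sequences was not made.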

Additional observations from a re-analysis of the deposited data

Results flagged for a closer look

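*Syngr3*, a synaptogyrin gene of the vesicle membrane, was at least 2-fold different in opposite directions in the 2 lines, with a difference in log2(TPM + 1) of -2.40 in GFP-positive cells (23.3 to 3.61 TPM) and 1.02 in tdTomato-positive cells (13.2 to 27.8 TPM). *Syt12*, a synaptotagmin gene, went the other way, with 2.23 in the GFP line and -1.05 in the tdTomato line, but it was listed at 0 in GFP-negative and tdTomato-positive cells and its highest value was 3.68 TPM. The difference between the lines was not tested for either gene, because each group has 1 library. None of the 9 genes was at least 2-fold different in opposite directions.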

How the results depend on the processing

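A log2 value is taken as moved when it changed by more than 0.58, and a count or percent when it changed by more than 1.5 times. No paired analysis was possible because the groups hold a single library each, and for the same reason none was left out. Unknown depth limits genes with low TPM values most.

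Under both pseudocounts, the median-ratio scaling, and the removal of the highest genes, all 9 genes stayed lower in reporter-positive cells of both lines. The count of genes at least 2-fold lower in the GFP line was 9 under these settings and with a 4-fold minimum, and 0 when scaled to mature OSN markers. In the tdTomato line the count of 2 became 1 with a pseudocount of 10, with the median-ratio scaling, or without the highest genes, 0 when scaled to the markers or with a 4-fold minimum, and 8 with a 1.5-fold minimum. *Syt1* (-1.02) is close to the 2-fold minimum. *Drd2* stayed past it under both pseudocounts, the median-ratio scaling, and the removal of the highest genes, but not when scaled to the markers (-0.37). In the GFP line with a pseudocount of 10, *Carns1* (-3.04) and *Syp* (-2.88) changed more than *Drd2* (-2.75).

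The median of the 9 genes in the GFP line was -2.09 with the median-ratio scaling and 0.054 when scaled to the markers, and in the tdTomato line it was 0.18 when scaled to the markers. Under this scaling the sign turned in the GFP line for *Slc17a6* (0.054), *Snap25* (0.28), *Syt1* (0.079), *Vamp2* (1.01), *Stx1a* (0.027), and *Gabbr1* (0.61), and in the tdTomato line for 8 of the 9 genes, from 0.020 (*Syt1*) to 0.53 (*Slc17a6*), with *Drd2* as the exception. This scaling sets the mean log2(TPM) of the markers equal in all libraries. The percent of all genes at least 2-fold lower was 24.0% with a pseudocount of 10, 21.7% with the median-ratio scaling, and 7.82% when scaled to the markers in the GFP line, and 10.5% and 12.5% with a pseudocount of 10 and the marker scaling in the tdTomato line.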

Other observations

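Other genes used widely in neurons were set beside the 9 genes. Of 11 genes for the neuronal cytoskeleton, RNA-binding proteins, and surface proteins, 10 reached 1 TPM in either library of each line. In GFP-positive cells 9 of them were at least 2-fold lower, with a median of -2.34, and in tdTomato-positive cells 6 were, with a median of -1.06, beside 45.0% and 23.2% of all genes tested. Scaled to mature OSN markers, 1 was lower and 2 higher in the GFP line, with a median of 0.58. For the tdTomato line 1 was lower and 1 higher, with a median of -0.022. On this scale 7.82% of all genes were lower and 76.7% higher in the GFP line, and 12.5% and 38.3% in the tdTomato line. *Thy1*, a surface protein of neurons and T cells, had far larger changes than any of the 9 genes, at 59.5 and 0.516 TPM in GFP-negative and GFP-positive cells and at 122 and 0.0341 TPM in tdTomato-negative and tdTomato-positive cells. The T cell gene *Cd3e* was at 26.9 TPM in GFP-negative and 46.9 TPM in tdTomato-negative cells, listed at 0 in GFP-positive cells, and at 0.16 TPM in tdTomato-positive cells, and its relation to the values of *Thy1* was not tested. *Map2*, a dendritic protein gene, stayed within a narrow range, at 23.6, 17.3, 19.1, and 27.8 TPM in GFP-negative, GFP-positive, tdTomato-negative, and tdTomato-positive cells. The 8 markers of immature OSNs were all at least 2-fold lower in GFP-positive cells, with a median of -2.14 compared with -2.95 for the 9 genes. In tdTomato-positive cells 5 of the 8 were, with a median of -1.05 compared with -0.85. After the marker scaling 0 of the 8 were lower and 2 were higher in the GFP line, with a median of 0.88. In the tdTomato line 0 were lower and 0 higher, with a median of -0.015.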
